A study of Caenorhabditis elegans with 3 samples.

Results

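Homolog pairing genes of the nematode Caenorhabditis elegans were examined on 3 two-colour arrays on which RNA of glp-4 larvae, collected at stage L3, was set against a wild-type mixed reference RNA. They are 8 genes chosen by name: the pairing centre zinc finger genes him-8, zim-1, zim-2 and zim-3, the kinase genes plk-2 and chk-2, and the nuclear envelope genes sun-1 and zyg-12. Of these, 6 had a probe assigned to that gene alone and were measured on all 3 arrays, among 14686 named genes so measured. No probe was assigned to plk-2 or chk-2, so neither has a value here. The arrays carried preps 1, 3 and 4 of glp-4 L3 RNA. The labels give no glp-4 allele, growth temperature or age in hours, and do not say how the reference was mixed or whether the preps came from separate cultures, so the p-values cover the spread among these 3 samples alone, and that spread may be technical.

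In meiotic prophase each chromosome must find its partner. In C. elegans this depends on pairing centres, repeat-rich regions near one end of each chromosome that are bound by a family of zinc finger proteins: HIM-8 binds the X chromosome, ZIM-1 binds II and III, ZIM-2 binds V, and ZIM-3 binds I and IV. The kinase CHK-2 starts the process and primes these proteins to recruit the polo kinase PLK-2. The pairing centres then attach to a bridge through the nuclear envelope, made of the SUN-domain protein SUN-1 in the inner membrane and the KASH-domain protein ZYG-12 in the outer membrane, which engages dynein and moves the chromosomes. SUN-1 and ZYG-12 also act in the early embryo, where they hold the centrosome to the nucleus. Mutants of glp-4, the gene of a valyl-tRNA synthetase, are known for a germ line that proliferates little at high growth temperature. Genotype and stage differ together from the reference, so no value below can be assigned to genotype alone.

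All values are log2 ratios centred on the median of each array, and means are given ± SD of the 3 arrays (n = 3). They were read as glp-4 L3 over reference. That direction is likely but not stated: in the labels the glp-4 RNA is channel 2, and dyes are not named. It was read in part from germline genes lying below the reference, which therefore gives no independent evidence of their side. With the opposite orientation every direction here would be turned, while sizes and counts would not change.

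The pairing centre genes and sun-1 were lower in glp-4 L3 on every array, while zyg-12 lay near the array median. By limma (Benjamini-Hochberg adjusted p under 0.05), 5 of the 6 measured genes passed as lower and 0 as higher, also 0 by an unadjusted p under 0.05. Over all 19580 features tested, 8.37% were lower and 8.26% higher by the same rule. The 6 genes had a median of -1.63, against 0.03 for all named genes. The arrays differed in spread, with an SD over probes of 0.71 with prep 1, 0.963 with prep 3 and 1.14 with prep 4. Without prep 3, 1 of the 6 (zim-1) was lower, against 1.08% of all features. There were 5 of 6 without prep 1, against 17.6% of all features, and 5 of 6 without prep 4, against 3.11%.

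**Figure D1:**
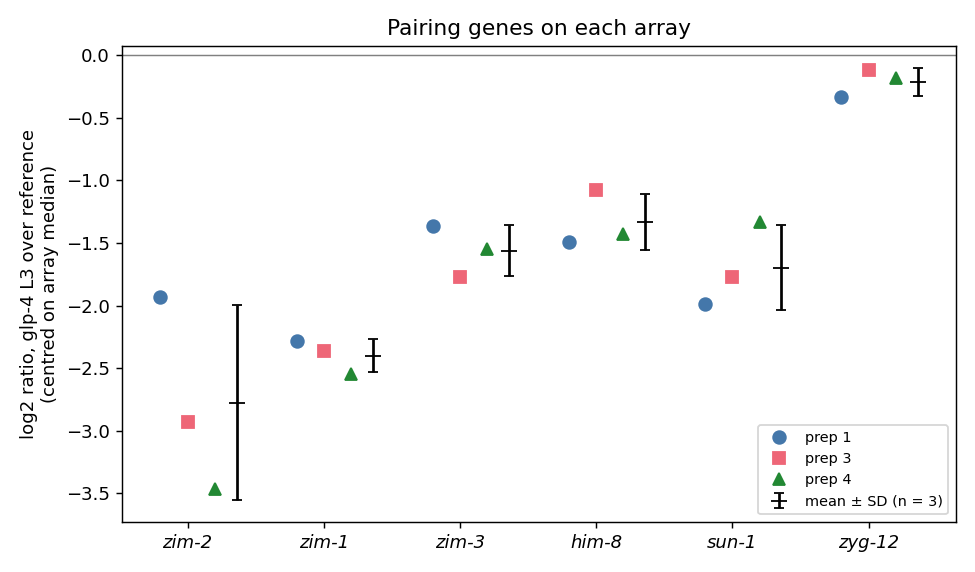
Log2 ratio of glp-4 L3 over reference (vertical axis, centred on the array median) for the 6 measured pairing genes, with 1 point per array and the mean ± SD of 3 arrays as a black bar. All points of the 4 pairing centre genes and sun-1 lie below -1, and those of zyg-12 lie between -0.33 and -0.11.

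The gene zim-2 (T07G12.10), whose product marks the pairing centre of chromosome V, was at -1.93 with prep 1, -2.93 with prep 3 and -3.46 with prep 4. It was the lowest of the 6 with preps 3 and 4, but not with prep 1, where zim-1 and sun-1 were lower. Its mean was -2.77 ± 0.78, which is 6.84-fold below the reference (limma adjusted p = 0.0068), and without prep 3 it did not pass (-2.70, adjusted p = 0.056).

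The gene zim-1 (T07G12.6), for chromosomes II and III, was at -2.29, -2.36 and -2.55 with preps 1, 3 and 4. Its values were close on all 3 arrays. The mean was -2.40 ± 0.13, or 5.27-fold below the reference (limma adjusted p = 0.0029). It passed the threshold without any single prep.

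For chromosomes I and IV, zim-3 (T07G12.11) was at -1.36, -1.77 and -1.55 with preps 1, 3 and 4. Its mean of -1.56 ± 0.20 is 2.95-fold below the reference (limma adjusted p = 0.0065, and 0.072 without prep 3).

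The X chromosome gene him-8 (T07G12.12), named for the high incidence of males among the progeny of its mutants, was at -1.49, -1.07 and -1.43 with preps 1, 3 and 4. These are averages of 2 probes. The mean was -1.33 ± 0.22, or 2.52-fold below the reference (limma adjusted p = 0.0097, and 0.071 without prep 3). The probes differed in size and shared the direction. One was at -0.87, -0.71 and -0.83 with preps 1, 3 and 4, and the other at -2.11, -1.44 and -2.03. Their difference of 1.05 ± 0.28 had the same sign on all 3 arrays. Tested alone, each probe was lower, with means of -0.80 (limma adjusted p = 0.030) and -1.86 (adjusted p = 0.0068). Which probe is nearer to the true ratio was not tested, so the place of him-8 in the order of the family depends on the probe.

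From the lowest, the means of the family ran zim-2, zim-1, zim-3 and him-8. Within arrays, zim-1 was below zim-3 by a log2 difference of -0.84 ± 0.21 and below him-8 by -1.07 ± 0.25, in the same direction on all 3 arrays. Against the lower of the him-8 probes alone, the latter was -0.54. Likewise zim-2 was below zim-3 by -1.21 ± 0.67 and below him-8 by -1.44 ± 0.87, in the same direction on all 3 arrays. Against that him-8 probe alone, zim-2 minus him-8 was -0.92 (exact sign-flip permutation p = 0.5). The neighbours zim-2 and zim-1 did not keep 1 order: zim-2 minus zim-1 came to 0.36, -0.57 and -0.92 with preps 1, 3 and 4. Nor did zim-3 and him-8, with differences of 0.13, -0.70 and -0.12. These pairs were chosen after their values were seen, and an exact two-sided sign-flip permutation test over 3 arrays cannot give a p below 0.25. It gave 0.25 (0.35 adjusted over 7 pairs) for both differences of zim-1 and for those of zim-2 from zim-3 and him-8.

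The 4 family genes lie in a row, zim-1, zim-2, zim-3 and him-8, with no other protein-coding gene between them, on chromosome IV in the RefSeq annotation. The next protein-coding gene before zim-1 is svct-1. It was at -0.42 with prep 1, -2.30 with prep 3 and -2.09 with prep 4, so prep 1 stood apart. Its mean of -1.60 ± 1.03 just missed the threshold (limma adjusted p = 0.0502), which it passed in 5 of 11 alternatives, among them preps 3 and 4 alone (-2.19, adjusted p = 0.0018). Over the 11 the adjusted p ran from 0.0018 to 0.25. The members of a gene family can share signal by cross-hybridisation, and whether these 4 do was not tested.

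The nuclear envelope genes differed from each other. The gene sun-1 (F57B1.2), which encodes the inner membrane part of the bridge, was at -1.99 with prep 1, -1.77 with prep 3 and -1.33 with prep 4. All 3 lay well below the array medians, and the array with the widest spread of ratios gave the value nearest to 0. Its mean was -1.70 ± 0.34, or 3.24-fold below the reference (limma adjusted p = 0.0070, and 0.070 without prep 3). The protein-coding genes before and after it on the chromosome, sri-6 and F57B1.1, were at 0.62 ± 0.70 and -0.18 ± 0.31 and did not pass.

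The gene zyg-12 (ZK546.1), the outer membrane part, was at -0.33, -0.11 and -0.18 with preps 1, 3 and 4. Its mean was -0.21 ± 0.11 and did not pass (limma adjusted p = 0.39). The 95% interval of the mean ran from -0.62 to 0.20, so a change of 1 log2 unit lies outside it. Within arrays sun-1 was below zyg-12 by -1.65 with prep 1, -1.66 with prep 3 and -1.15 with prep 4 (mean -1.49 ± 0.29, exact sign-flip permutation p = 0.25, the smallest possible, 0.35 adjusted over 7 pairs). The zyg-12 probe is named by the array annotation alone, because its gene number had no match in the RefSeq table.

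Ranks within each array do not depend on its spread. Among all features of an array, zim-2 stood between percentiles 0.83 and 1.30, and zim-1 between 0.88 and 1.86. The others spread more: zim-3 from 3.22 to 6.28, him-8 from 2.70 to 9.21 and sun-1 from 1.24 with prep 1 to 8.30 with prep 4. The gene zyg-12 was at percentile 21.3 with prep 1, 42.6 with prep 3 and 41.1 with prep 4.

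**Figure D2:**
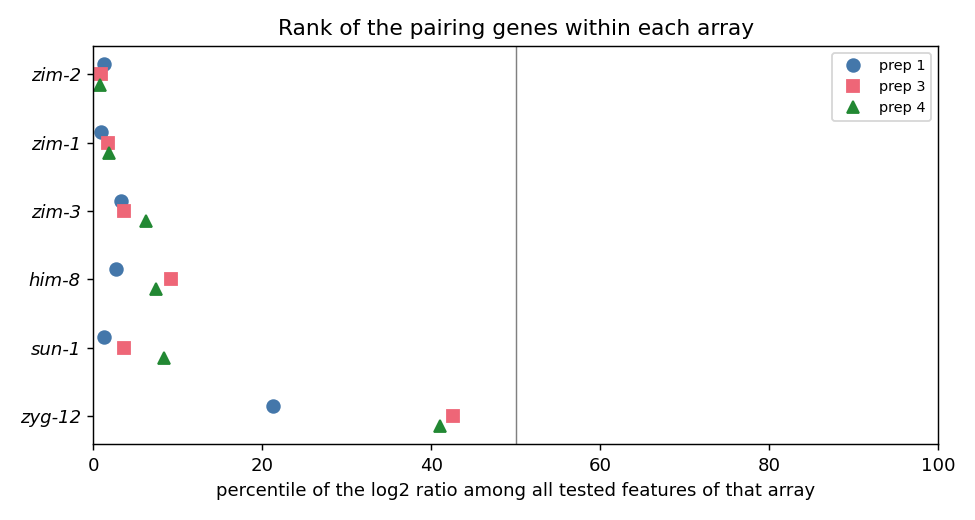
Percentile of each pairing gene's log2 ratio among the 19580 tested features of each array (horizontal axis), with 1 point per array. The 4 pairing centre genes and sun-1 lie below percentile 10 on all 3 arrays, with 9.21 the highest, while zyg-12 lies between 21.3 and 42.6.

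The bridge of somatic nuclei uses other members of the same protein families, which allowed a comparison within each array. The gene unc-84 encodes the SUN protein that positions nuclei in somatic cells, and unc-83 and anc-1 encode its KASH partners. None of the 3 passed the threshold. The gene unc-84 was at -0.16, 0.63 and 0.32 with preps 1, 3 and 4 (mean 0.26 ± 0.40), on both sides of the array median. The gene unc-83 was above it on all 3 arrays, at 0.39, 0.53 and 0.42 (mean 0.45 ± 0.07, limma adjusted p = 0.11). The gene anc-1 was at 0.22, 0.05 and -0.14 (mean 0.04 ± 0.18).

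On every array sun-1 was below unc-84, by -1.83 with prep 1, -2.40 with prep 3 and -1.65 with prep 4, a mean difference of -1.96 ± 0.39 or 3.89-fold. For the KASH genes the gap was smaller. The difference of zyg-12 from unc-83 was -0.66 ± 0.06, with the same sign on 3 arrays. That from anc-1 came to -0.55, -0.17 and -0.04 with preps 1, 3 and 4, a mean of -0.25 ± 0.26, which rested mainly on prep 1 and was -0.11 without it. The exact two-sided sign-flip permutation test gave p = 0.25 for each of these 3 pairs, also after adjustment over them, which is the smallest value 3 arrays allow. The planned pairs with plk-2 and chk-2 could not be formed.

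Of the kinases related to the unmeasured ones, plk-1, the mitotic polo kinase gene that can stand in for plk-2 in meiosis, was at -2.11, -1.70 and -1.83 with preps 1, 3 and 4 (mean -1.88 ± 0.21, limma adjusted p = 0.0046). The third polo kinase gene, plk-3, was lower still, at -3.96, -3.11 and -4.03 (mean -3.70 ± 0.51, limma adjusted p = 0.0029). Its values lay at or below percentile 0.80 on every array. Both passed without any single prep. The DNA damage kinase gene atl-1 was at -0.34 ± 0.25 and did not pass, and chk-1 and atm-1 had no value. These values say nothing of plk-2 or chk-2 themselves.

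**Figure D3:**
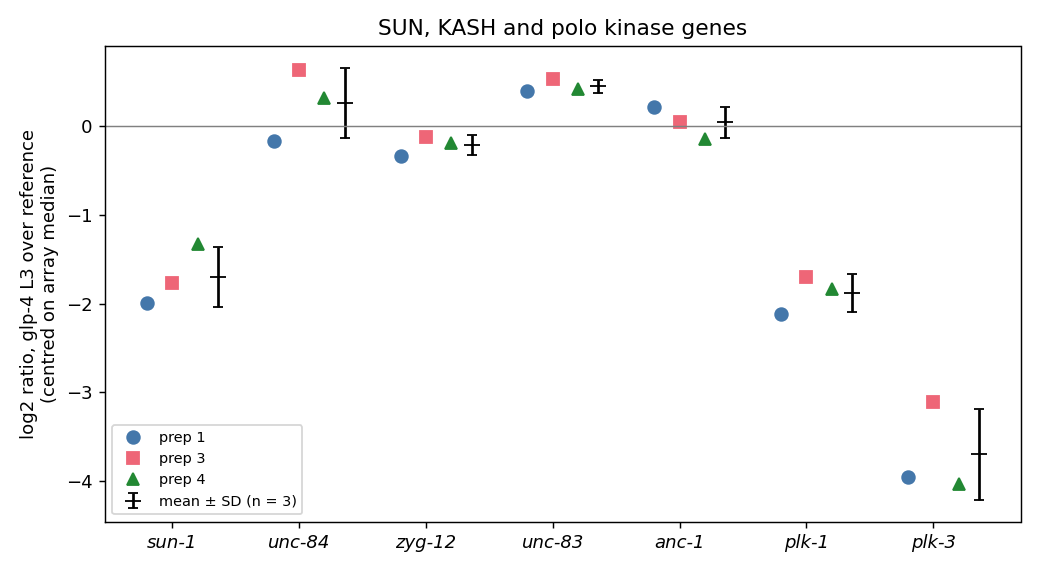
Log2 ratio of glp-4 L3 over reference (vertical axis, centred on the array median) for SUN, KASH and polo kinase genes, with 1 point per array and the mean ± SD of 3 arrays in black. The germline SUN gene sun-1 and both polo kinase genes lie below -1 on each array, while unc-84, zyg-12, unc-83 and anc-1 lie between -0.33 and 0.63.

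The partners of the pairing genes in meiosis were lower in most cases. Over all features, 8.37% were lower and 8.26% higher by adjusted p. In the axis and synaptonemal complex list, the proteins that line each chromosome and join the paired homologs, all 9 measured of 13 were lower, with a median of -2.06. The lowest were the axis genes him-3 (-2.99 ± 0.19) and htp-1 (-2.86 ± 0.57) and the central region genes syp-2 (-2.47 ± 0.04) and syp-3 (-2.12 ± 0.43). Among regulators of pairing and synapsis, 7 of 12 measured genes were lower and 0 higher (0 higher also by limma's p before adjustment), and the median was -1.56. They included lab-1 (-2.19 ± 0.30), which protects cohesion, pch-2 (-1.73 ± 0.61), which encodes an ATPase of the synapsis checkpoint, and skr-2 (-1.95 ± 0.19), a SKP1-related ubiquitin ligase component. Another of the 7 was plk-1, described above, which also stands in the polo kinase list. Also lower was mjl-1 (-1.58 ± 0.23), a nuclear envelope partner of the pairing centres, named outside the rule after its value was seen.

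In the list of double-strand break and crossover genes, which act under CHK-2 or after pairing, 11 of 17 measured genes were lower and 0 higher (0 higher also by limma's p before adjustment), and the median was -1.34. They included dsb-1 (-1.89 ± 0.42), which promotes breaks, spo-11 (-1.75 ± 0.24), which makes them, mre-11 (-1.67 ± 0.24), which processes them, and zhp-3 (-1.75 ± 0.67), which marks crossovers. With all 3 arrays, 8.37% of all features were lower and 8.26% higher. Without prep 3 the lower counts of the axis, regulator and break lists were 4, 2 and 0, where 1.08% of all features were lower. Without prep 4 the break list held 7, where 3.11% of all features were lower.

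The list of dynein and dynactin genes and that of somatic bridge, lamina and nuclear envelope genes had medians closer to the array median. Below 0 were 5 of 12 measured genes of the first list and 15 of 19 of the second. Of 12 measured dynein and dynactin genes 0 were lower and 1 was higher (1 and 3 by limma's p before adjustment), and the median was 0.20. The higher one was bicd-1 (1.09 ± 0.42), which encodes a dynein adaptor, and it did not pass without prep 3 or without prep 4. The dynein heavy chain gene dhc-1, named after its value was seen, was at 0.17, 0.99 and 0.68 with preps 1, 3 and 4 and did not pass (limma adjusted p = 0.11). Of 19 measured genes for somatic bridge, lamina and nuclear envelope proteins 1 was lower and 0 higher (7 lower and 1 higher by limma's p before adjustment), and the median was -0.34. The lower one was samp-1 (-0.85 ± 0.23), which encodes an inner nuclear membrane protein, and it too did not pass without prep 3 or without prep 4. The counts by adjusted p are close to the shares over all features (8.37% lower and 8.26% higher). No share over all features is given for the counts before adjustment, and nothing is read from either about the lists. With array weights the dynein list held 5 higher and 1 lower and the envelope list 2 higher and 6 lower. Among all 19580 features, that fit called 3938 higher and 4161 lower. Without prep 1 the dynein list held 2 higher and 0 lower and the envelope list 1 higher and 2 lower. That fit called 3211 higher and 3464 lower of all 19651 features. Differences between lists were not tested.

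**Figure D4:**
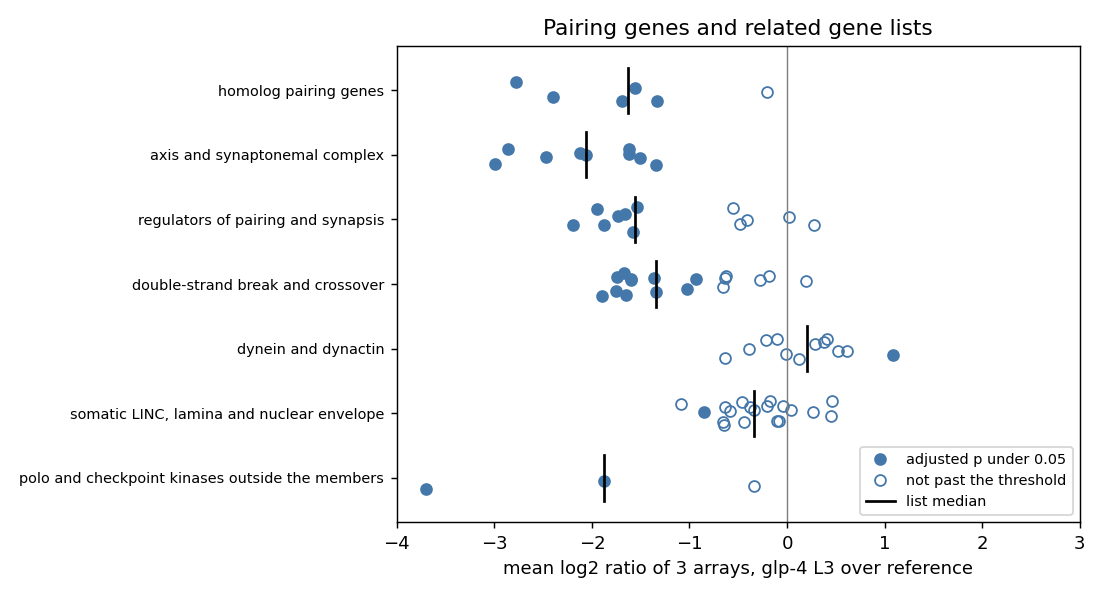
Mean log2 ratio of 3 arrays, glp-4 L3 over reference (horizontal axis), for each measured gene of the pairing genes and 6 related lists. Filled points passed limma's adjusted p under 0.05, open points did not, and black lines are list medians, which run from -2.06 for the axis and synaptonemal complex to 0.20 for dynein and dynactin.

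The 3 named genes whose values were nearest to the median profile of the 6 pairing genes (-1.71, -1.77 and -1.49 with preps 1, 3 and 4) were syp-1, R07B7.2 and glh-2, at Euclidean distances over the 3 arrays of 0.12, 0.18 and 0.19 log2 units. The synaptonemal complex gene syp-1 was at -1.74, -1.66 and -1.45 with preps 1, 3 and 4. For R07B7.2, named here without a function, the values were -1.61, -1.79 and -1.64. The germline RNA helicase gene glh-2 was at -1.74, -1.95 and -1.55. With 3 arrays such likeness is a description only.

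Germline markers moved with the pairing genes. Of 9 measured germ line markers, 8 were lower and none higher, with list medians of -1.74, -1.88 and -2.35 with preps 1, 3 and 4. All 7 oocyte markers and 3 of 6 sperm markers were lower. Of somatic markers, 6 of 6 of intestine and 5 of 6 of muscle were higher. Of 5 hypodermis markers 1 was higher, 2 lay below 0, and 1 was lower by limma's p before adjustment. None of 6 markers of neurons or 3 of somatic gonad passed (0 and 1 higher by limma's p before adjustment). Over all features, 8.37% were lower and 8.26% higher by adjusted p. In whole animals, fewer germ cells and less RNA per germ cell cannot be told apart, and the part of the cell makeup in the values of the pairing genes was not tested.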

How the data were processed

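The authors deposited 1 value table of 21632 probes on 3 two-colour arrays. Its values are deposited log2 ratios, as read from the numbers: below a ratio of 1, 100% of values on each array fall on ratios rounded to 3 decimals. What scanner was used and how signals were corrected and normalized is not stated in the sources used here. No intensities were used, so nearness to background is unknown, and the number of arrays limits the precision. Gene names came from the platform annotation (16450 probes with 1 gene, 247 with several, 4935 with none), updated through RefSeq (WBcel235) by gene number for 16360 probes and by accession for 8. Coordinates are left out because the probes' genome build is not named.

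Arrays were centred on their medians and probes averaged per gene. Features on all 3 arrays were tested against 0 with limma 3.58.1 in R 4.3.3 (lmFit, eBayes, Benjamini-Hochberg over 19580 features, threshold 0.05), which leaves out the reference's own spread. The procedure was tested on simulated data in which all arrays had equal spread, unlike these arrays. No conclusion is drawn from that run here. Related genes were named by rule: up to 4 per list past the threshold in the main direction and 2 in the other, fixed counterparts, chromosomal neighbours and the 3 nearest profiles. The pairing genes, lists and tests were chosen with earlier results of these data known.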

Additional observations from a re-analysis of the deposited data

How the results depend on the processing

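Of 11 alternatives, 10 left the 5 lower pairing genes at 5, and none made any of the 6 higher. The exception was the fit without prep 3, so leaving out 1 prep gave 1 to 5 lower genes. The 4 genes lost there, him-8, zim-2, zim-3 and sun-1, had limma adjusted p between 0.056 and 0.072, and the sign of none of the 6 turned. All 6 lay below the median on each of the 3 arrays, so leaving out or weighting arrays could not turn a sign. Some alternatives kept the same means. Over all features, the higher and lower counts were 3938 and 4161 with array weights, against 1617 and 1638. Leaving out 1 prep gave 174 to 3211 higher and 212 to 3464 lower features. With each probe alone, where him-8 was represented by the lower of its 2 probes, zim-3 minus him-8 turned to 0.30. Without 1 prep that difference ran from -0.41 to 0.0019. Without 1 prep, anc-1 ran from -0.0434 to 0.14 and lron-11, next to plk-2, from -0.022 to 0.048. The gene unc-83 passed with array weights (adjusted p = 0.030). The cause of these changes was not tested, beyond the loss of 1 array. Preps 3 and 4 share letters and what reads as a date in their array titles, and prep 1 has others. The labels do not say what these mean. A fit with the title letters as a block gave no correlation estimate, so the fit without prep 1 is the value within that pair. No paired analysis was possible because there is 1 group. The alternatives for differences and related genes were chosen after seeing the data.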

Other observations

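Paralogous or adjacent genes beside the pairing genes gave unequal ratios, and these were picked after their values were seen. Neither the differences between them nor shared signal by cross-hybridisation was tested. The SKP1-related genes skr-1 and skr-2 are close paralogs that act together in ubiquitin ligases of the germ line. The gene skr-2 was at -2.12, -1.98 and -1.75 with preps 1, 3 and 4 and was lower. The gene skr-1 was also below the array medians, at -0.53, -0.32 and -0.58, and did not pass (limma adjusted p = 0.11, and 0.031 before adjustment). The gene try-1, which precedes zyg-12 on its chromosome, was at -1.88, -1.52 and -1.87 with preps 1, 3 and 4 and was lower (mean -1.76 ± 0.20, limma adjusted p = 0.0051), while zyg-12 and the next gene after it, ndx-3 (-0.10 ± 0.08), did not pass.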
